A study of Rattus norvegicus with 9 samples.

Results

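The 7 genes Tubb3, Mapt, Map2, Nefm, Nefh, Stmn4 and Crmp1 encode the tubulin, microtubule-binding and neurofilament proteins that set the neuronal cytoskeleton apart from that of other cells. They are 7 of the 32662 genes in the deposited count table, which covers RN46A, 1 serotonergic cell line derived from rat raphe neurons and immortalised. They were chosen by name from a table of genes that the authors found altered by sodium valproate (VPA), so their values in VPA against control describe the choice and are given here without a test. All 9 libraries share the same background: the cells multiplied at 33 °C with 5% serum, and differentiation on collagen and fibronectin lasted 72 h, with 1% serum and the temperature raised to 39 °C. During the 72 h that followed, the cells behind 3 libraries received 0.5 mM lithium, those behind 3 received 0.5 mM VPA, and 3 libraries were controls. Lithium inhibits glycogen synthase kinase 3, which phosphorylates tau, and VPA inhibits histone deacetylases.

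Microtubules in axons and dendrites are built from alpha- and beta-tubulin, and neurons add the beta-tubulin isotype encoded by Tubb3. The proteins of Mapt (tau) and Map2 bind along the microtubule wall through related repeats and stabilise it; tau is mainly axonal and MAP2 mainly dendritic. Neurofilament subunits, among them the medium chain Nefm and the heavy chain Nefh, form the intermediate filaments that set the calibre of large axons. Stathmins such as Stmn4 bind free tubulin and regulate microtubule assembly, and Crmp1, a collapsin response mediator protein, takes part in semaphorin signalling at the growth cone. These genes are widely used as markers of neuronal differentiation.

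Promoter windows from RefSeq (build GRCr8) were matched by symbol for 3 of the 7 members, Tubb3, Map2 and Crmp1; Mapt, Nefm, Nefh and Stmn4 are named only. The windows are shown for the members that had one, and they differ widely in base composition. Whether composition bears on the VPA values was not tested. Only 1 annotated start per gene is shown, and whether these cells use it was not tested. Each window runs from 250 bases before to 50 bases after the annotated start, 5′ to 3′ on the gene's strand. Capitals mark the GC box GGGCGG on either strand, overlapping matches included. The windows lie at chr19:68365437-68365736 on the plus strand for Tubb3, chr14:77780867-77781166 on the minus strand for Crmp1 and chr9:75346440-75346739 on the plus strand for Map2.
Tubb3: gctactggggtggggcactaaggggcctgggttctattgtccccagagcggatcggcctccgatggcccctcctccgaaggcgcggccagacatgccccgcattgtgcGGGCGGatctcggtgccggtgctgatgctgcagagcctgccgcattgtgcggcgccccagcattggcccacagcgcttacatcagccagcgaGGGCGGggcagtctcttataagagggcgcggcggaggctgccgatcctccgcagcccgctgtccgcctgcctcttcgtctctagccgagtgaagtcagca
Crmp1: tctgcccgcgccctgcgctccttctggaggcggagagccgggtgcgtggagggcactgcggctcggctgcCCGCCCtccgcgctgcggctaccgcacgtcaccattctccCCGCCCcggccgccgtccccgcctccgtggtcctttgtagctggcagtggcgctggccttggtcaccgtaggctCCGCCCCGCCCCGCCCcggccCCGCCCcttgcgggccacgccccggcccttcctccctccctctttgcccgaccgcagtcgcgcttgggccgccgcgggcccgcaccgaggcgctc
Map2: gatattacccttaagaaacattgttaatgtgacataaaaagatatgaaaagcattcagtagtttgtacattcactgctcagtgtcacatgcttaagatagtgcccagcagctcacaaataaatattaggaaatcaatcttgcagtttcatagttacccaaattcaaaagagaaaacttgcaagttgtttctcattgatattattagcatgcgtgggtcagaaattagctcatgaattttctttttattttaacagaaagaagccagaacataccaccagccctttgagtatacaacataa
The Tubb3 window was 67.3% G and C with 26 CpG pairs and 2 GC boxes, and the Crmp1 window 77.7% with 40 CpG pairs and 6 GC boxes. The Map2 window was 33.3% G and C with 1 CpG pair and 0 GC boxes. The median of all 33469 windows was 51.7% G and C and 7 CpG pairs, and 33.1% of them held a GC box. The letters TATAA occurred once in the Tubb3 window, overlapping their reverse complement, with the first base of TATAA 34 bases before the start (26.2% of all windows). The E-box CANNTG was found once, in the Map2 window, and the letters TGACG, a half-site of the cAMP response element, once, in the Crmp1 window (72.1% and 21.2% of all windows). The left half-site TTCAGCACC of the RE1 element and its right half-site were found in none of the 3 windows, and in 0.356% and 0.454% of all windows. Both strands were searched in each case. Such matches describe the letters of these windows only.

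Reads assigned to genes numbered 9580591 to 13030300 per library. Levels are given as CPM, counts divided by library size after TMM scaling, so that 1 count was worth 0.077 to 0.109 CPM. All 7 members had at least 1 count in every library and were among the 12719 genes tested. Stmn4 and Crmp1 reached the filter's minimum of 0.865 CPM in 0 of 3 controls and entered the test through the VPA libraries, with Crmp1 above it in 1 lithium library as well. Altogether 5.71% of the tested genes were called higher with VPA than in control, 2.99% were called lower, 8.7% (1106 genes) were called in either direction (1741 genes with the replicate number as a block), and 11.7% had all 3 VPA libraries above the other 6. All 7 members were called higher with VPA than in control, which the choice of members fixes. All 7 also had all 3 VPA libraries above the other 6. The choice fixes this only in part, since it set VPA against control and not against lithium. The VPA libraries are still those that chose the members, so this too is given without a test. In bulk RNA, more cells of a type and more RNA per cell cannot be told apart. The labels do not say whether replicates were cultured separately; errors and p-values measure the spread between these libraries, which may be technical. In the authors' deposited Cufflinks table, whose genome build is not given in the sources used here, Tubb3 spans 56220754 to 56229849 on chromosome 19, Mapt 92288909 to 92386517 on chromosome 10 and Map2 73204675 to 73462972 on chromosome 9. The same deposited table of the authors puts Nefm at 44855309 to 44860604 and Stmn4 at 43002259 to 43025852 on chromosome 15, and Nefh at 85181571 to 85191557 and Crmp1 at 78266930 to 78308933 on chromosome 14.

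The neuronal beta-tubulin gene Tubb3 (ENSRNOG00000017209) was higher in all 3 VPA libraries than in any other. It stood at 7.98, 10.7 and 18.1 CPM in controls 1, 2 and 3, at 12.1, 14.8 and 14.9 CPM with lithium, and at 39.9, 44.0 and 49.9 CPM with VPA. The lowest VPA library was 2.2 times the highest of the other 6. The means were 12.3 ± 5.25 CPM in control and 44.6 ± 5.03 CPM with VPA (SD, n = 3), a fitted log2 change of 1.86 ± 0.27 (SE). Beta-tubulin genes are close in sequence and can share reads, so part of the Tubb3 count is uncertain.

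Mapt, which encodes tau (ENSRNOG00000005133), was at 1.72, 2.28 and 1.69 CPM in the controls. Lithium libraries 1, 2 and 3 gave 0.517, 1.32 and 1.93 CPM, and VPA libraries 9.44, 11.1 and 13.0 CPM. VPA lay above both other groups, which overlapped. The log2 change from control to VPA was 2.56 ± 0.36 (SE). Map2 (ENSRNOG00000011841) was at 38.6, 24.7 and 23.9 CPM in controls, 24.4, 31.1 and 31.8 CPM with lithium, and 83.1, 68.7 and 77.6 CPM with VPA. Its log2 change with VPA was 1.39 ± 0.21 (SE). The balance of the pair differed too: in controls 1, 2 and 3 there were 4.47, 9.21 and 7.06 reads of Mapt per 100 of Map2. The same ratio was 2.12, 4.24 and 6.05 with lithium and 11.4, 16.2 and 16.8 with VPA, so the VPA libraries did not overlap either group. This ratio is drawn from values that chose both genes, and its difference was not tested.

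Both neurofilament genes were higher with VPA, Nefh by less than Nefm in the point estimates, a difference that was not tested. Nefm, the medium chain (ENSRNOG00000013916), was at 0.635, 0.868 and 1.16 CPM in controls, on 7, 8 and 13 counts. With lithium it was at 1.46, 2.02 and 1.00 CPM, and with VPA at 6.24, 5.89 and 4.74 CPM. Its log2 change with VPA was 2.65 ± 0.35 (SE). Nefh, the heavy chain with its long phosphorylated tail (ENSRNOG00000008716), was at 10.3, 8.79 and 15.3 CPM in controls and 10.4, 7.63 and 14.3 CPM with lithium. VPA libraries 1, 2 and 3 held 20.9, 20.9 and 39.8 CPM of Nefh. VPA 3 therefore stood apart, and the lowest VPA library was only 1.37 times the highest other library. The log2 change of Nefh was 1.24 ± 0.32 (SE), and 0.86 without VPA 3. In the fits without VPA 3, control 1 or control 2 Nefh was not called. The reads of Nefm per 100 of Nefh were 6.14, 9.88 and 7.56 in controls, 14, 26.4 and 7.03 with lithium and 29.9, 28.2 and 11.9 with VPA. VPA lay above control in this ratio, which was not tested, and lithium overlapped both.

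Stmn4 and Crmp1 had the fewest reads of the members. Stmn4 (ENSRNOG00000053334) had 6, 4 and 3 counts in controls 1, 2 and 3, 4, 7 and 8 with lithium, and 21, 31 and 32 with VPA. In CPM these were 0.267 to 0.544 in controls, 0.345 to 0.616 with lithium, and 1.64, 3.32 and 2.57 with VPA. The log2 change with VPA was 2.56 ± 0.44 (SE). Crmp1 (ENSRNOG00000004781) had 3, 2 and 9 counts in the controls, 4, 5 and 16 with lithium, and 61, 31 and 51 with VPA. Control 3 and lithium 3 held most of the reads of their groups, at 0.8 and 1.23 CPM, while VPA stood at 4.76, 3.32 and 4.10 CPM. The log2 change of Crmp1 with VPA was 3.18 ± 0.53 (SE), the largest of the 7 members, and 4.0 without control 3. At these control counts the size of the change is poorly fixed, with a 95% interval of 2.02 to 4.34.

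**Figure D1:**
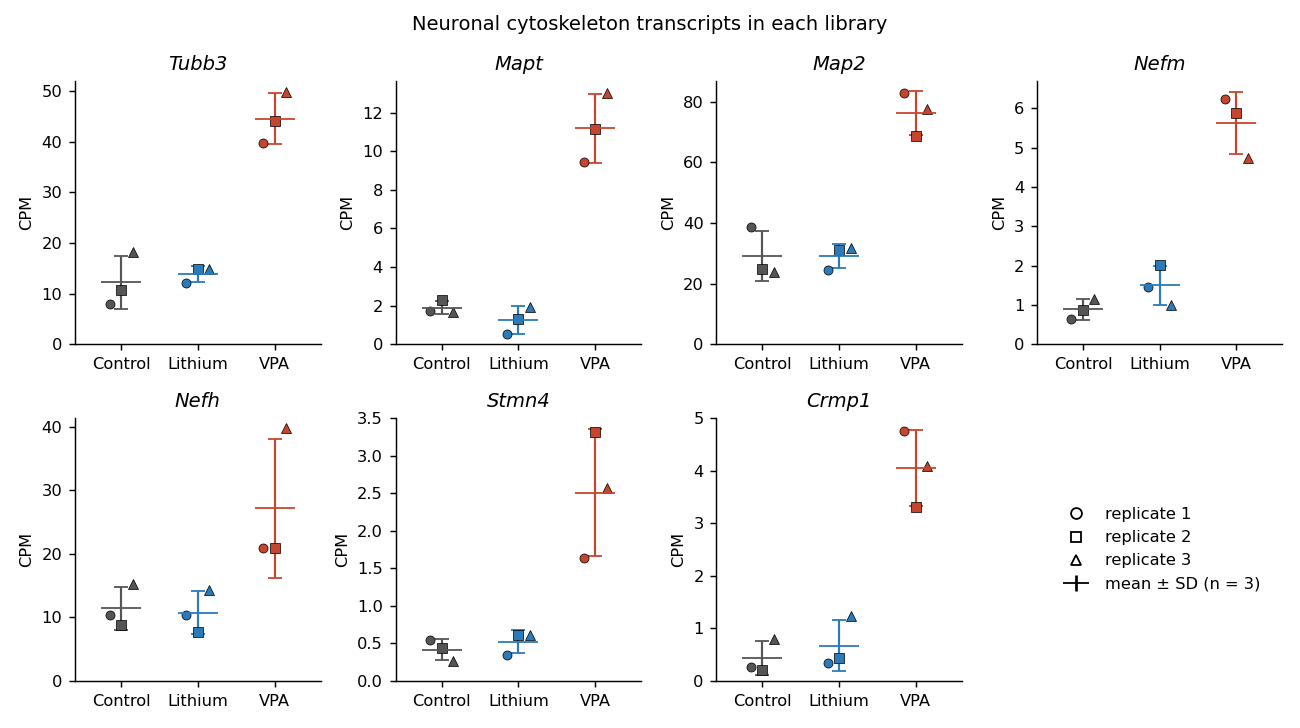
CPM (vertical axis, linear, from 0) of each member in control, lithium and VPA libraries; symbols give the replicate number, and bars the mean and SD of 3 libraries. In every panel the 3 VPA libraries lie above the other 6, most narrowly for Nefh, where VPA 3 at 39.8 CPM stands apart from 20.9 CPM in VPA 1 and 2.

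Between genes, levels were compared per length with the group FPKM of the authors' deposited Cufflinks table, which gives 1 value a group and no spread. By these FPKM values the order in control was Tubb3 (7.37), Map2 (4.76), Nefh (2.91), Stmn4 (0.358), Mapt (0.291), Nefm (0.258) and Crmp1 (0.183). With VPA, in the authors' deposited table, Tubb3 was at 24.7 FPKM, Map2 at 12.0, Nefh at 6.90, Mapt at 1.76, Nefm at 1.73, Stmn4 at 1.64 and Crmp1 at 1.35. The 3 genes highest in control had VPA to control ratios of 2.37 (Nefh) to 3.35 (Tubb3) in that deposited table, and the other 4 ratios of 4.58 (Stmn4) to 7.39 (Crmp1). Whether the ratio goes with the level was not tested, in genes chosen by this same contrast. The authors' deposited Salmon and sleuth table lists 1 transcript for each of 6 members, all but Stmn4. Its effects, on a natural log scale, were 1.28 ± 0.20 for Tubb3, 1.79 ± 0.30 for Mapt, 0.94 ± 0.15 for Map2, 1.86 ± 0.33 for Nefm, 0.86 ± 0.27 for Nefh and 2.07 ± 0.46 for Crmp1 (SE). Turned to log2, those deposited effects run from 1.24 for Nefh to 2.98 for Crmp1. The authors' deposited DESeq2 table gives smaller log2 changes, from 1.1 for Nefh to 2.2 for Mapt, rounded to 1 decimal. All these estimates come from the same libraries and the contrast that chose the members.

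**Figure D2:**
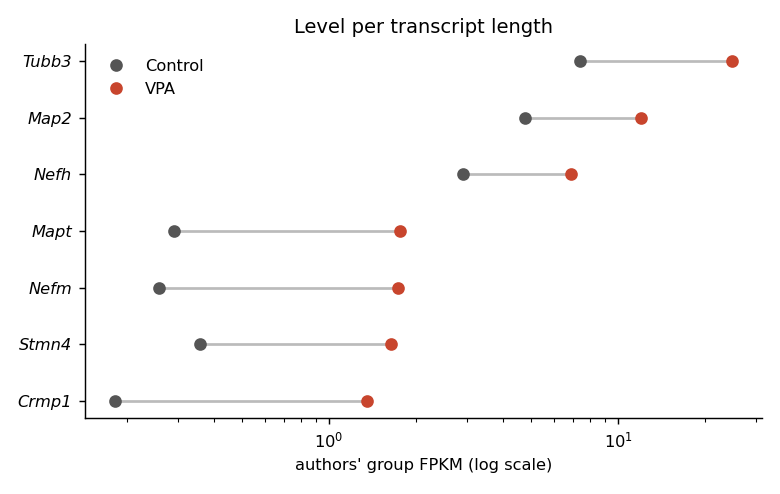
Group FPKM of each member in control and VPA from the authors' deposited Cufflinks table, on a log axis; 1 value a group, no error available. Tubb3, Map2 and Nefh lie above the other 4 members in both groups, and the lines are longest for Crmp1, Nefm and Mapt.

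Lithium against control did not choose the members and was tested, with the same 3 controls that VPA was set against. For none of the 7 members did lithium pass the test (adjusted p = 1 for each, quasi-likelihood test of edgeR, Benjamini-Hochberg over 12719 genes). This was so across the whole table: edgeR called 0 genes, or 0% of those tested, with 116 genes (0.912%) at an unadjusted p under 0.05, and DESeq2 called 0 with 98. The lithium and control libraries overlapped for all 7 members, where 3.28% of tested genes had groups that did not overlap. The intervals give the sizes of change that these libraries leave possible. Map2 differed by 0.00 on the log2 scale, with a 95% interval of -0.46 to 0.46, equal to a fold of 0.725 to 1.38. Tubb3 differed by 0.18 (-0.41 to 0.76) and Nefh by -0.09 (-0.81 to 0.62). The 2 members farthest from 0 after their errors were Nefm at 0.74 (-0.09 to 1.56; unadjusted p = 0.0751 in edgeR's test) and Mapt at -0.57 (-1.45 to 0.30; unadjusted p = 0.177). Stmn4 stood at 0.34 (-0.79 to 1.47) and Crmp1 at 0.62 (-0.72 to 1.97). The intervals of Nefm, Stmn4 and Crmp1 include an upward change of 2-fold, and that of Mapt a downward one. The authors' deposited table of lithium results, which lists 137 genes up to an unadjusted p of 0.0499, contains 0 of the members.

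With respect to lithium the VPA libraries gave log2 differences of 1.68 ± 0.27 for Tubb3, 3.13 ± 0.37 for Mapt, 1.39 ± 0.21 for Map2 and 1.91 ± 0.32 for Nefm (SE). Those of Nefh, Stmn4 and Crmp1 were 1.34 ± 0.32, 2.21 ± 0.42 and 2.55 ± 0.49. These differences use the VPA libraries that chose the members and are likewise a description; all 7 were called, where 5.61% of tested genes were called higher. Nefh was not called in the fits without VPA 3, lithium 1 or lithium 2, in which 6 members were, and the difference of Crmp1 was 3.34 without lithium 3. By group mean CPM, lithium lay below control for Mapt and Nefh, equal to it at 29.1 for Map2 and above it for the other 4, with no member passing the lithium test.

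**Figure D3:**
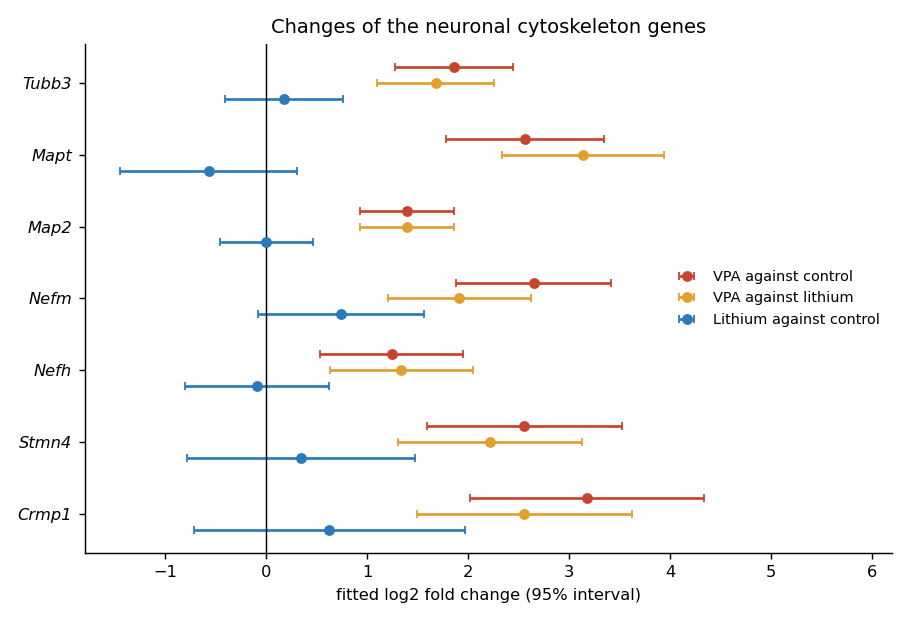
Fitted log2 fold changes with 95% intervals (horizontal axis) of the 7 members in VPA against control, VPA against lithium and lithium against control. The lithium intervals all include 0, and the 2 VPA comparisons, which share the VPA libraries, lie to the right of 0 for every member.

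Over the 9 libraries, Pearson correlations of log2(CPM + 0.5) between pairs of members were 0.72 to 0.96 (21 pairs), which the difference between VPA and the rest sets. After each library was taken relative to its own group mean, the same 21 correlations ran from -0.53 (Tubb3 with Map2) to 0.64 (Nefh with Crmp1), with a median of 0.09. Nefh was highest in the library numbered 3 of each group, and so was Tubb3, although with lithium its replicates 2 and 3 were nearly equal. Tubb3 stood 0.62 above its group mean in control 3 on that log2 scale, and Map2 0.44 above in control 1. The reads of Tubb3 per 100 of Map2 were 20.7, 43.4 and 75.8 in controls 1, 2 and 3. With lithium that ratio was 49.5, 47.7 and 46.7, and with VPA 48.0, 64.1 and 64.3, both within the span of the controls. Lithium 3 was the highest lithium library for 6 of the 7 members, all but Nefm, and lithium 1 the lowest for 5. What the replicate numbers stand for is not given in the labels.

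**Figure D4:**
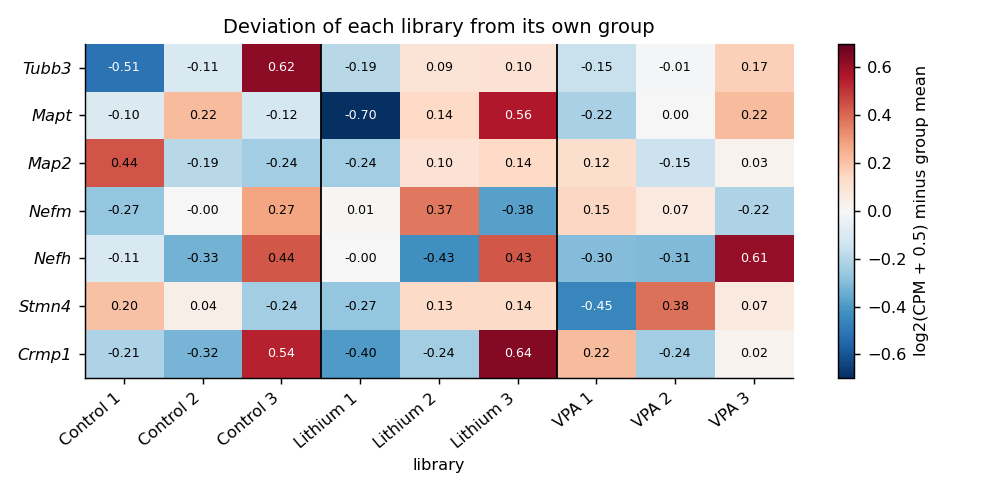
Deviation of log2(CPM + 0.5) from the mean of the library's own group, for each member (rows) and library (columns); red is above and blue below that mean. Nefh is red in replicate 3 of all 3 groups (0.44, 0.43 and 0.61), while Map2 is highest in control 1 (0.44) and Nefm falls below its mean in lithium 3 (-0.38).

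Other cytoskeleton genes, not all of them neuronal, were counted in 9 lists of 289 genes, the members among them. A name was available only where the authors' own tables, selected by p on the same libraries, give one, so 39 of the other 282 genes had a name and 37 of these were tested. The counts below are therefore not shares of whole lists, nor independent evidence of direction. Epb41l4b, Plppr4, Lcp1 and Ppp1r1a stayed under the filter's minimum of 0.865 CPM in every control and lithium library. These genes entered the test only through the VPA libraries, where they were high. Outside VPA, Tubb4a reached that minimum only in control 3 (1.69 CPM) and lithium 3 (1.23 CPM). Nfasc did so only in control 1 (0.998 CPM) and lithium 3 (1.16 CPM). Both therefore also needed the VPA libraries to enter the test. Of the 37, 24 rose in VPA libraries, 4 fell, and 9 failed to pass (edgeR's quasi-likelihood test, adjusted p under 0.05 over all genes tested). Their median log2 change was 1.06, beside -0.01 over all genes tested. DESeq2 called more, 35 of the 37, with 27 higher and 8 lower. The counts by list below are those of edgeR's main fit. With lithium 0 of the 37 were called by edgeR and by DESeq2; 1, Ttll7, had an unadjusted p under 0.05 in edgeR's test.

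Among tubulins both others tested rose. Tubb4a, the beta-tubulin isotype abundant in brain, went from 0.726, 0.217 and 1.69 CPM in controls to 5.54, 5.25 and 14.5 CPM with VPA. Its log2 change was 3.21 ± 0.60 (SE); it was 4.09 without control 3 and 2.57 without VPA 3. Tuba8, an alpha-tubulin, went from 3.45, 3.26 and 6.13 to 8.19, 7.18 and 19.6 CPM (1.44 ± 0.40). As with Nefh, the library numbered 3 was the highest of its group for both genes, and the call of Tuba8 was lost without control 1, control 2, lithium 1, lithium 2, VPA 1 or VPA 3. Without VPA 3 its log2 change was 0.84.

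Of 7 other microtubule-binding genes tested 5 rose, 0 fell and 2 did not pass. Camsap3, which caps and protects microtubule minus ends, changed by 2.44 ± 0.36 on the log2 scale. Map7, a cofactor of kinesin-1, changed by 1.06 ± 0.23, its relative Map7d2 by 1.03 ± 0.20, Map9 by 0.99 ± 0.22 and the plus-end binding protein Mapre3 by 0.89 ± 0.22 (SE). The call of Map7 was lost without control 1, control 2 or VPA 2, that of Map9 without VPA 1, and that of Mapre3 without control 1, control 2, VPA 2 or VPA 3. Map1a, a large microtubule-binding protein of mature neurons, stood at 135 ± 76.5 CPM in control and 146 ± 52.6 CPM with VPA (SD, n = 3) and did not pass (log2 0.11 ± 0.42 SE), nor did Nav3 (-0.86 ± 0.30).

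Of 3 intermediate filament genes tested outside the neurofilaments 0 rose, 2 fell and 1 did not pass. The keratin gene Krt8 went from 8.35, 12.9 and 11.0 CPM in controls to 3.43, 4.18 and 2.17 CPM with VPA (log2 -1.73 ± 0.30 SE). Krt7 fell by 1.28 on the log2 scale (SE 0.30), and lost its call without control 3, VPA 1 or VPA 3. Vimentin, Vim, the main intermediate filament of mesenchymal and immature neural cells, was at 4392 ± 686 CPM in control and 2639 ± 715 CPM with VPA (SD, n = 3) and did not pass in edgeR's test (adjusted p = 0.0791, and 0.0495 with the replicate block). The eye lens filament gene Bfsp2, named only in the authors' deposited Cufflinks table, is listed there at 4.27 FPKM in control and 1.30 with VPA.

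In the list of stathmins and CRMPs 1 further gene was tested, and it fell. Stmn1, the stathmin of dividing and immature cells, was at 943 ± 26.8 CPM in control and 585 ± 55.5 CPM with VPA (SD, n = 3), a log2 change of -0.69 ± 0.17 (SE). Stmn1 stood lower in the libraries where Stmn4 stood higher, though its call was lost without control 1, control 2 or any 1 VPA library. Dpysl5, another collapsin response mediator gene, had 1 count in the 3 controls together and 33 with VPA, too few to enter the test.

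All 5 named genes of the axonal spectrin and ankyrin skeleton rose. Nfasc, the adhesion molecule of the axon initial segment and nodes, was at 0.685 ± 0.287 CPM in control and 4.57 ± 0.589 CPM with VPA (SD, n = 3; log2 2.70 ± 0.38 SE). Sptbn4, the spectrin of the same sites, changed by 1.02 ± 0.21, Sptb, a further beta-spectrin, by 1.17 ± 0.25, and Ank3, which encodes ankyrin-G, by 0.81 ± 0.20. The fifth gene, Epb41l4b, had 8 counts in controls and 58 with VPA (2.66 ± 0.54, and 3.40 without control 1). The call of Ank3 was lost without any 1 control or VPA library, and that of Sptb without control 2 or VPA 1. Of 7 kinesin and dynein genes 5 rose, 0 fell and 2 did not pass. Kif1a, the carrier of synaptic vesicle precursors, went from 0.998, 0.651 and 1.16 CPM to 5.38, 8.57 and 6.51 CPM (2.83 ± 0.34). Kif5c, a neuronal kinesin-1 heavy chain, changed by 1.85 ± 0.23, the dendritic kinesin Kif17 by 1.95 ± 0.29, Kif21a by 1.35 ± 0.26 and Kif19 by 0.91 ± 0.22. Kif19 lost its call without control 1, control 2, VPA 2 or VPA 3. The mitotic kinesin Kifc1 (-0.60 ± 0.18) and the kinesin adaptor Mapk8ip1 (0.81 ± 0.24) did not pass; with the replicate block their adjusted p in edgeR's test was 0.0463 and 0.0165.

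Of 8 growth cone and actin genes tested 4 rose, 1 fell and 3 did not pass. The protein kinase C substrate Marcks changed by 1.43 ± 0.21, the actin-binding LIM protein Ablim3 by 2.5 ± 0.44 and Plppr4 by 2.78 ± 0.51 (log2 ± SE). Lcp1 and Lsp1 both encode actin-binding proteins of leucocytes. The actin-bundling Lcp1, with 6 counts in all controls, changed by 3.75 ± 0.54, and Lsp1 by -3.15 ± 0.33. Srgap1 (1.15 ± 0.34), Coro1a (0.91 ± 0.29) and Marcksl1 (-0.90 ± 0.28) did not pass; with the replicate block their adjusted p in edgeR's test was 0.046, 0.0475 and 0.0206. All 3 kinase and phosphatase genes tested rose, among them Mark1, a kinase of tau and MAP2 (1.30 ± 0.29), Camk2b (1.23 ± 0.24) and the phosphatase inhibitor Ppp1r1a (3.56 ± 0.66; 4.2 without control 1), which had 5 counts in controls and 70 with VPA. Mapk10, with 0 counts in controls and 21 with VPA, was not tested. Mark1 lost its call without control 2 or VPA 1. The tau tubulin kinase gene Ttbk1 is listed at 0.467 FPKM in control and 1.01 with VPA in the authors' deposited Cufflinks table. Of the tubulin-modifying and severing list only Ttll7, a tubulin polyglutamylase, was tested, and it did not pass (0.39 ± 0.20).

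**Figure D5:**
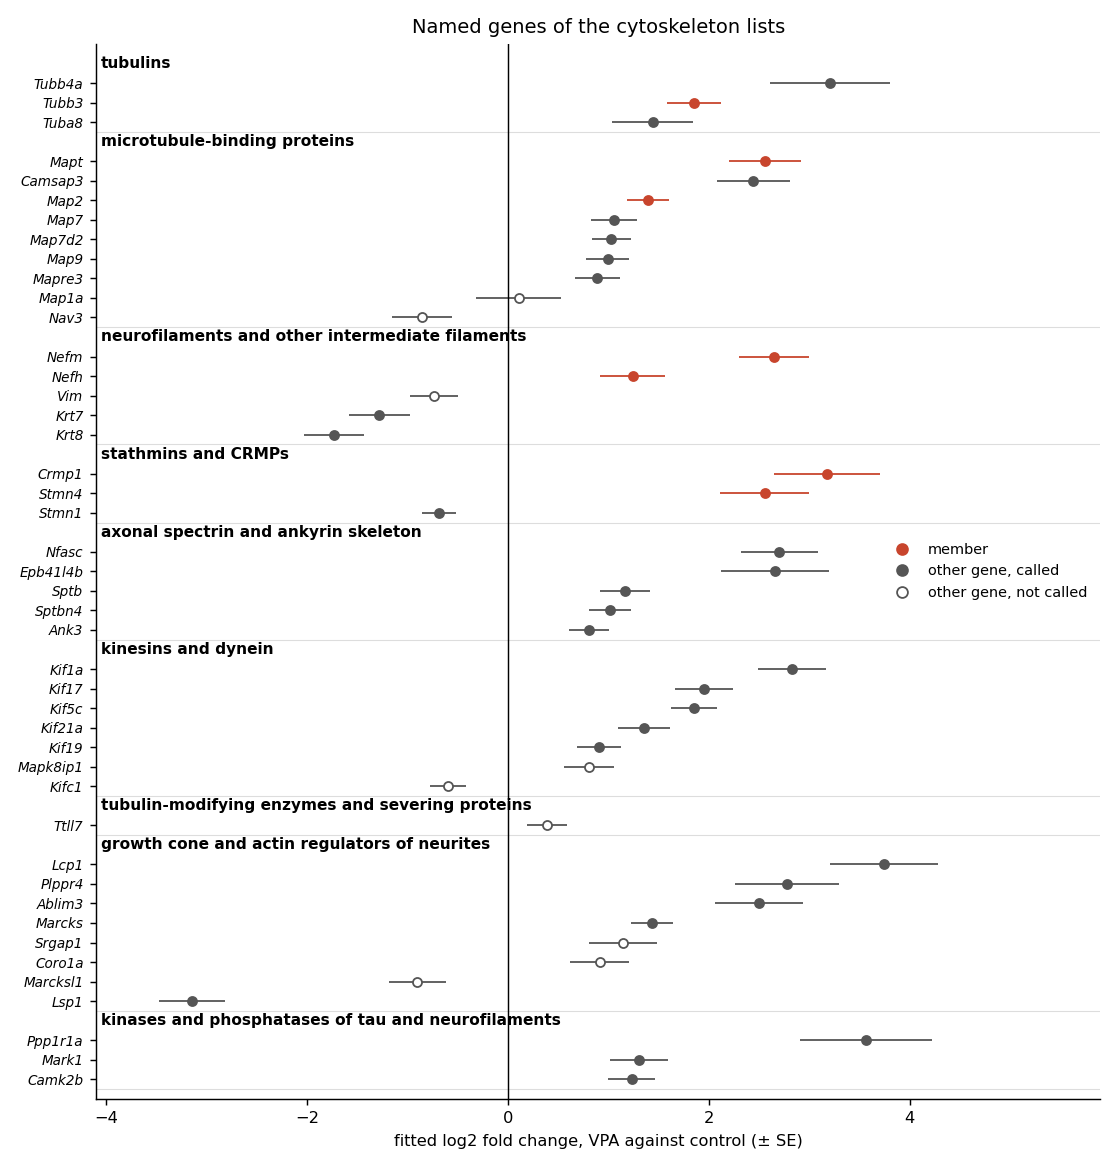
Fitted log2 fold change of VPA against control, with its SE, for the members (red) and the other named and tested genes of the 9 lists (grey; filled where called). Microtubule, spectrin and kinesin genes lie mostly to the right of 0, and Krt7, Krt8, Stmn1 and Lsp1 are the called genes to its left.

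Named markers of other cell types also differed between these groups. Their names too were available only through the authors' selection by p on the same libraries. The counts are therefore not shares of whole lists, nor independent evidence of direction. Among all genes tested 5.71% were called higher with VPA than in control and 2.99% lower. Of 10 fibroblast markers 7 had a name. The collagens Col1a1 and Col3a1, Dcn, Lum, Fn1 and S100a4 fell in VPA libraries, 6 of the 7 against 0 that rose, and Pdgfra was not called; their summed level was 6499 to 9666 CPM in controls, 4261 to 6116 CPM with lithium and 1680 to 2380 CPM with VPA. Of these, Lum was at 0 counts in all 3 VPA libraries. With lithium 0 of the 7 were called. Unadjusted p in edgeR's test ran from 0.00855 (Col3a1) to 0.0416 (Dcn) for Col3a1, Col1a1, Pdgfra, Fn1 and Dcn, all lower with lithium. It was 0.057 for Lum and 0.291 for S100a4, which were also lower. Among all genes tested 0.912% had an unadjusted p under 0.05 with lithium. Of 11 markers of neural crest and Schwann cells 5 had a name, of which 3 rose (Sox10, Erbb3, Ngfr) and 2 fell (S100b, Prx), and their summed level was 41.7 to 69.5 CPM in controls, 49.5 to 64.9 CPM with lithium and 74.0 to 79.8 CPM with VPA. Of 12 general neuronal markers 6 had a name and 5 were tested; 3 rose (Snap25, Syt1, L1cam), 0 fell, and Syn1 and Uchl1 were not called, with sums of 88.6 to 152 CPM in controls, 83.7 to 122 CPM with lithium and 193 to 317 CPM with VPA. Of 15 genes listed as serotonergic markers 4 had a name, of which 3 rose (Maob, Htr5b, Hmx3) and 1 fell (Hmx2). Whether these 4 are specific to serotonergic neurons was not tested. Their sums were 19.7 to 25.5 CPM in controls, 22.7 to 22.8 CPM with lithium and 24.2 to 30.7 CPM with VPA. The others of that list, Tph2 and Slc6a4 among them, were not analysed here. Astrocyte and oligodendrocyte markers had 0 names each. The single named markers of smooth muscle (Cnn1, of 5 listed), leucocytes (Cd68, of 6) and dividing cells (Ccnd2, of 7) rose. Ccnd2 had 2 counts in the controls together and 72 with VPA, and the rest of its list was not analysed. Stmn1 and Kifc1, above, lay on the other side of 0, at -0.69 (called) and -0.60 (not called). Snap25, Sox10, Htr5b, Cnn1 and Ccnd2 stayed under the filter's 0.865 CPM in every control and lithium library. The sums mostly follow their most abundant genes. Uchl1 alone was at 79.1 to 135 CPM in controls and 150 to 261 CPM with VPA. Mean Fn1 was 5080 CPM in control and 1483 CPM with VPA. Mean Prx was 38.4 and 16.6 CPM, and mean Hmx2 18.9 and 10.6 CPM, in the same order. The part of these marker shifts in the members' values was not tested.

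Among 1167 other genes that had a name and averaged at least 1 CPM, the 6 whose log2(CPM + 1) over the 9 libraries was most like the mean of the 7 standardised members were Acsl1, Chrna5, Plxdc1, Atp1b2, Ppp1r1b and Sh3gl3. Their Pearson correlations with that mean were 0.995, 0.994, 0.993, 0.993, 0.992 and 0.991, in this order, and those of the members themselves 0.892 (Nefh) to 0.976 (Crmp1). Acsl1, an acyl-CoA synthetase, was at 32.2 ± 2.72 CPM in control, 34.7 ± 5.75 with lithium and 74.8 ± 5.21 with VPA (SD, n = 3). Atp1b2, a sodium pump subunit of neurons and glia, went from 3.12 ± 0.737 CPM in control and 3.34 ± 0.63 with lithium to 18.2 ± 3.39 with VPA. All 9 points share the difference between VPA and the other groups, from which the members were chosen. The names came from the authors' selection by p on the same libraries, so a likeness to the members is no independent evidence. Chrna5 averaged 0.126 CPM in control and 0.321 with lithium, and Ppp1r1b 0.414 and 0.554. They reached the mean of 1 CPM only through VPA, at 4.68 and 4.99 CPM.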

How the data were processed

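Libraries were made from total RNA with the NEBNext Ultra RNA kit, per the labels' protocols; this kit does not mark strand, and an antisense or overlapping neighbour's reads cannot be told apart from a gene's own. The authors deposited raw counts per Ensembl gene; the name of that deposited table gives HTSeq. The submitters' processing notes name STAR 2.5.1, Cufflinks 2.2.1, Salmon 0.6.1, sleuth and DESeq2. The sources used here give no genome build or annotation, nor whether starts count from 0 or 1. Per the file headers, the authors' comparison tables hold log2 fold changes, p-values and mean normalized counts (a signal) and a test score from DESeq2, group FPKM from Cufflinks, and natural log effects from sleuth; that scale was inferred here, since over 577 transcripts the effects were at the median 0.697 of log2 changes by Cufflinks. A further table repeats the DESeq2 lines and was not used, nor were 6 columns of per-sample values in the lithium table.

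The deposited counts entered a quasi-likelihood fit, robust, in edgeR 4.0.16 (R 4.3.3), after TMM scaling and filterByExpr with a minimum count of 10. The 9 libraries shared 1 fit with a mean for each of 3 groups and 6 residual degrees of freedom; tests were two-sided with Benjamini-Hochberg adjustment and calls at an adjusted p under 0.05. The fit was tested on simulated data. Names came from the authors' tables (1384 identifiers). The members and lists were chosen with earlier results of these data known. Named genes were the members; in each list, up to 4 called genes averaging at least 1 CPM, by p; all named tubulin, neurofilament, stathmin and CRMP genes; and the 6 most similar genes. Bfsp2, Ttbk1, Mapk10, Mapre3, Kif19, Epb41l4b, Plppr4, Ppp1r1a, the 9 list genes that were not called and the single markers were named after their values were seen. Same-numbered VPA and control libraries deviated together (correlations 0.61, 0.53 and 0.526 over 10288 genes), so the title numbers were taken as pairs in an alternative fit. Other alternatives were DESeq2 1.42.0, 3 scalings, no filter and leaving out each library.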

Additional observations from a re-analysis of the deposited data

How the results depend on the processing

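The log2 changes of all 7 members in VPA against control and against lithium kept their sign under every alternative run (16 and 15), and lithium called 0 members, 0 list genes and 0 genes in all 15 (adjusted p of members 0.999 to 1, edgeR or DESeq2). Lithium estimates of members moved across 0 for Tubb3, Map2, Nefh and Crmp1, the last between -0.17 without lithium 3 and 1.43 without control 3. Without control 3 the VPA against control estimate was 4.0 for Crmp1, 2.26 for Tubb3 and 2.91 for Nefm, and without VPA 3 that of Nefh was 0.86. Without lithium 3 the VPA against lithium estimate was 3.34 for Crmp1 and 3.60 for Mapt. With the replicate block 1741 genes were called in VPA against control (main 1106) and 1609 in VPA against lithium (main 1009), and 2408 in VPA against control when the block was fitted without lithium libraries, an alternative added after the data were seen; 7 members were called in each, and the SE of Nefh went from 0.32 to 0.17 with the pairing. Of other list genes, 6 gained and 0 lost the call with the block. DESeq2 called 35 of 37 in VPA against control, but the names came in part from the authors' DESeq2 results on these libraries. Lithium libraries 1 and 2 correlated best with controls 2 and 1 (0.687 and 0.654), not with their own numbers, so the block says little of lithium. Without 1 library, 638 to 1026 genes were called in VPA against control, with over 1.5 times fewer than the main count without VPA 1 (638), VPA 2 (698), VPA 3 (669) or control 1 (694). In VPA against lithium the range was 544 to 1197, with over 1.5 times fewer without lithium 1 (553), lithium 2 (544), VPA 1 (638), VPA 2 (659) or VPA 3 (639). Members called were 6 to 7 in both comparisons. In VPA against control, 21 to 29 other list genes were called without 1 library (main 28), and 18 of the 28 kept the call in all 9 such fits. Scaling moved the median of all genes by under 0.1. Depth limits Stmn4 and Crmp1, with 13 and 14 counts over all controls.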
